A study of Drosophila melanogaster with 12 samples.

Results

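Receptors for smell and taste in the fly belong to 3 gene families, the odorant receptors (Or), the gustatory receptors (Gr) and the ionotropic receptors (Ir). The 168 genes described here were taken by name, as every Or, Gr or Ir gene with a number and a letter, plus *Orco*, from 21076 genes with FPKM values (fragments scaled to transcript length and to the mapped fragments of the library). They comprised 57 Or genes including *Orco*, 51 Gr genes and 60 Ir genes. The flies were adult males, whole bodies, of 2 genotypes. *Mettl16* mutants carried the *Mettl161-9* allele, a CRISPR/Cas9 frameshift deletion in exon 1 of the gene for a predicted RNA methyltransferase, and *w1118* males served as controls. Each genotype had 3 biological replicates, each made from about 50 males with no treatment, and the RNA before m6A immunoprecipitation (input) gave the 6 expression libraries. The mutant allele is 1 CRISPR line, and neither the age of the males nor whether that line shares the *w1118* background was given in the sources used here. A difference between the genotypes can therefore come from the allele or from the strain, and these cannot be told apart.

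Most Or genes are each expressed in a small class of olfactory neurons in the antenna or the maxillary palp. An Or protein forms an odour-gated channel together with the coreceptor Orco, which nearly all of these neurons share. Gr proteins serve mostly in taste neurons of the mouthparts, legs and wings, where sugar and bitter receptors mark separate neurons, and one pair of them detects carbon dioxide in the antenna. Ir proteins are relatives of ionotropic glutamate receptors. They work with the coreceptors Ir25a, Ir8a, Ir76b or Ir93a and detect acids, amines, humidity, temperature and tastants. Receptor neurons make up a small share of the cells of a whole fly.

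The input libraries held 5.32 to 6.48 aligned gigabases, and 17763 to 18106 genes had a value above 0 in each. The logged values correlated at 0.991 to 0.994 within a genotype and at 0.946 to 0.955 between genotypes. *Mettl16*, listed as *CG7544* on 2R, had 0.430, 0.285 and 0.232 FPKM in the mutants, against 0.971, 0.824 and 1.19 FPKM in *w1118*.

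Of the 168 receptor genes, 20 (11.9%) had a mean of at least 0.5 FPKM over the 6 libraries, against 65.8% of all genes. These 20 were 5 Or, 6 Gr and 9 Ir genes. The median receptor gene had a mean of 0.0433 FPKM, and the highest, *Or59c*, had 2.92 FPKM. A mean of at least 1 FPKM was found in 7 receptor genes and a mean of at least 0.1 FPKM in 53. In each mutant library 97 to 108 receptor genes had a value above 0, against 87 to 97 in each *w1118* library. Over all genes the counts were 17902 to 18106 in the mutants and 17763 to 17956 in *w1118*. Values were above 0 in all 6 libraries for 54 receptor genes. A further 13 were listed at 0 in all 6, namely *Or10a*, *Or22c*, *Or33c*, *Or65a*, *Gr9a*, *Gr58a*, *Gr59b*, *Gr59c*, *Gr85a*, *Ir7g*, *Ir56c*, *Ir67a* and *Ir94f*. The genes above 0.5 FPKM were spread over the genome, with 8 of 33 receptor genes on 3L, 4 of 26 on 2L, 5 of 46 on 2R, 2 of 41 on 3R and 1 of 22 on X.

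**Figure D1:**
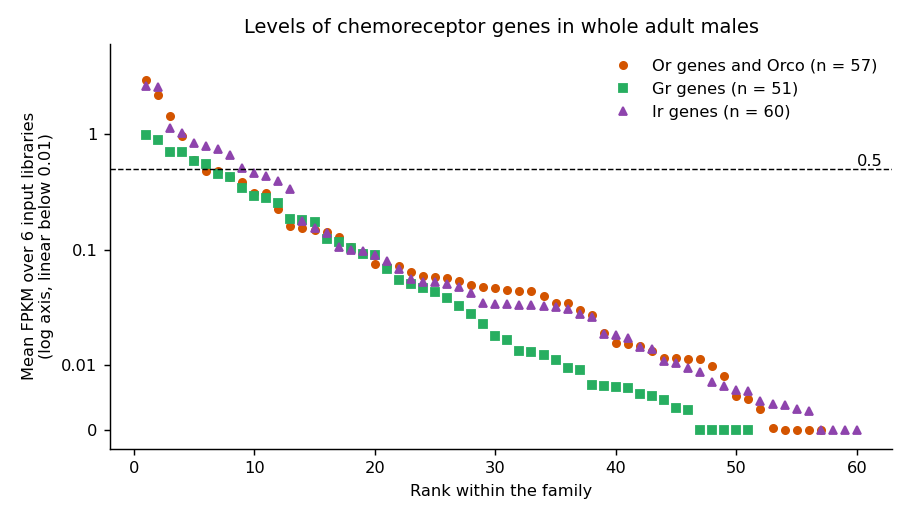
Mean FPKM over the 6 input libraries (log axis, linear below 0.01) of the 57 Or, 51 Gr and 60 Ir genes, each family ordered by level; the dashed line marks 0.5 FPKM. Each family fell steeply with rank, and 5 Or, 6 Gr and 9 Ir genes lay above the line.

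The cut at 0.5 FPKM ran through closely spaced values. The 3 genes just above it were *Gr64a* with a mean of 0.587, *Gr63a* with 0.554 and *Ir75a* with 0.507 FPKM. The 3 just below it were *Or71a* with 0.482, *Or94a* with 0.481 and *Ir85a* with 0.464 FPKM. A mean over both genotypes can also pass through one of them alone. Both genotype means reached 0.5 FPKM for 12 of the 20 genes, 6 passed only through *w1118* (*Ir76a*, *Gr98a*, *Gr66a*, *Ir7c*, *Or23a* and *Gr63a*) and 2 only through the mutants (*Gr64a* and *Ir75a*). Among all 13866 genes at that level, 319 passed only through *w1118* and 331 only through the mutants.

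Among the 20 measurable genes, 12 (60%) differed between the genotypes at an adjusted p under 0.05 (limma on log2(FPKM + 1), two-sided, over all 13866 genes whose mean reached 0.5 FPKM). In the mutants 9 (45%) were lower and 3 (15%) higher. Of all 13866 genes tested 49.6% passed, 26.7% lower and 22.9% higher, and of the 3577 genes with means of 0.5 to 3 FPKM, the range of these receptors, 37.7% passed, 19.5% lower and 18.2% higher. The libraries of the genotypes did not overlap for 16 of the 20, with 12 lower and 4 higher in the mutants, while 60.3% of all genes tested did not overlap, 30.5% lower and 29.7% higher. The median log2 difference, mutant minus *w1118*, was -0.30 over the 20 receptor genes and 0.01 over all genes tested. The 8 genes that reached the filter through one genotype had to differ in their means. Among the 12 with both means at 0.5 FPKM or more, 5 were lower and 1 was higher. Of all 13216 genes with both means at that level, 3481 were lower and 2939 higher. The calls of *Or59b*, *Ir41a* and *Ir68a*, the 1 higher gene, were lost under at least 1 alternative setting. In whole bodies, fewer neurons of a type and less RNA per neuron cannot be told apart. The count of higher genes was 1 without mutant replicate 2 or without mutant replicate 3, and 5 without *w1118* replicate 1. By chromosome, 4 of the 9 on chromosome 2 passed, all lower, where 52.9% of all genes tested passed, 30.3% lower and 22.6% higher. On chromosome 3, 4 of the 10 were lower and 3 higher, where 49.4% of all genes tested passed, 26% lower and 23.3% higher. The one on X was lower, where 42.2% of all genes tested passed, 20.4% lower and 21.8% higher.

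**Figure D2:**
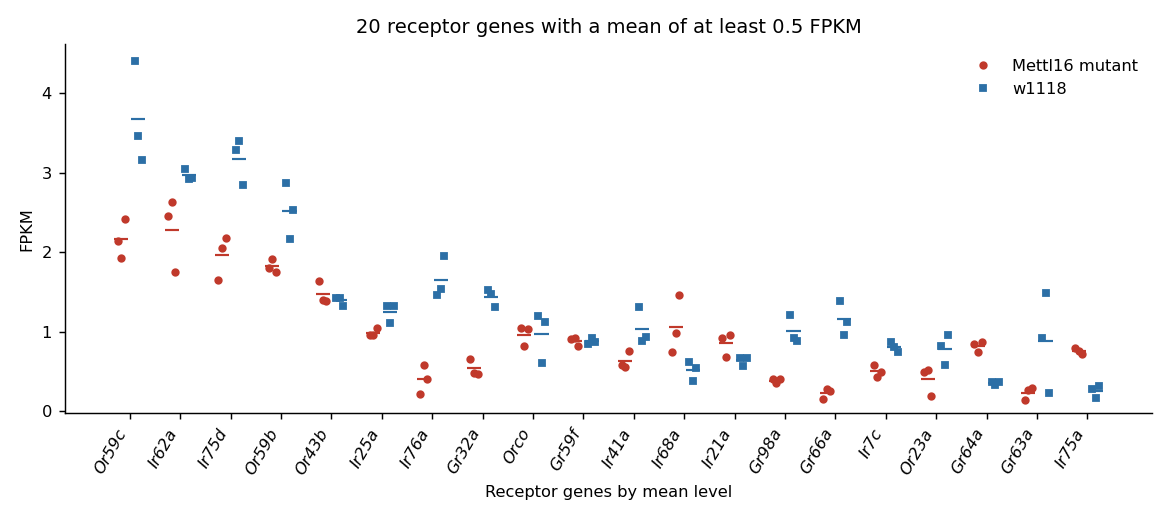
FPKM in each input library of the 20 receptor genes whose mean reached 0.5 FPKM, ordered by mean, with mutants left (red circles) and *w1118* right (blue squares), n = 3 each; short lines are genotype means. For *Ir76a*, *Gr32a* and *Gr66a* every *w1118* value lay above 0.9 FPKM and every mutant value below 0.7.

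Summed over all 168 genes, the receptors had 32.5, 30.6 and 31.9 FPKM in the mutants, against 40.9, 36.8 and 37.6 FPKM in *w1118*. The ratio of the means was 0.825, beside 0.955 for the sum of all genes. The 20 measurable genes summed to 19.1, 19.2 and 19.6 FPKM in the mutants, against 29.8, 26.1 and 26.1 FPKM in *w1118*. The 148 genes below 0.5 FPKM summed to 13.4, 11.4 and 12.3 FPKM in the mutants, against 11.0, 10.7 and 11.5 FPKM in *w1118*, with ranges that overlapped. The sums are a description, since the level that sets the classes comes from the same libraries.

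Among the odorant receptors, *Orco* did not pass the test, and 2 of the 4 other measurable genes were lower in the mutants. *Orco* (3R, 5407183 to 5412406), the coreceptor of the family, had 1.04, 0.814 and 1.03 FPKM in the mutants, against 1.19, 0.607 and 1.12 FPKM in *w1118*. The mutant values lay inside the *w1118* range, and the log2 difference was 0.00 with a standard error of 0.14 (adjusted p = 0.986).

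*Or59c* (2R, 23472300 to 23473753), a receptor of the maxillary palp, had the highest level of the family. It had 2.14, 1.93 and 2.42 FPKM in the mutants, against 4.40, 3.46 and 3.16 FPKM in *w1118*. The genotypes did not overlap, the mutant mean was 1.70-fold lower, and the log2 difference was -0.56 ± 0.11 (standard error, adjusted p = 0.00445). Its neighbour *Or59b* (2R, 23470165 to 23471775), a receptor of antennal neurons that respond to acetate esters, lies 525 bases away. It had 1.80, 1.91 and 1.75 FPKM in the mutants, against 2.87, 2.16 and 2.53 FPKM in *w1118*. All 3 mutant values were below the lowest *w1118* value, with a log2 difference of -0.32 ± 0.09 (adjusted p = 0.0235). Leaving out mutant replicate 1 or 3 or *w1118* replicate 1 or 3 lost this call, with adjusted p up to 0.0645. Both genes lie wholly inside *CG43795*, which is transcribed from the other strand and had 1.02 FPKM in the mutants and 1.07 FPKM in *w1118*.

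*Or43b* (2R, 7920835 to 7922604), expressed in another class of antennal neurons, had 1.47 ± 0.14 FPKM in the mutants and 1.39 ± 0.06 FPKM in *w1118* (SD, n = 3 each), and the 2 ranges overlapped. Of its 1770-base span, 745 bases overlap *Cul1* on the other strand, which had 35.7 FPKM in the mutants and 37.3 FPKM in *w1118*. *Or23a* (2L, 2654049 to 2655462), of antennal trichoid and intermediate neurons, had 0.491, 0.516 and 0.192 FPKM in the mutants, against 0.820, 0.573 and 0.957 FPKM in *w1118*. The groups did not overlap, but the difference of -0.35 ± 0.14 missed the threshold (adjusted p = 0.0641). Its end shares 69 bases with *Prosbeta4R2* on the same strand, a proteasome gene of 13.05 FPKM in the mutants and 27.5 FPKM in *w1118*, which was lower as well.

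By class, 1 of 7 receptors of the palp, 2 of 25 of antennal basiconic sensilla and 1 of 10 of trichoid and intermediate sensilla were measurable, and none of the 12 known only from larvae. The 7 palp receptors summed to 2.61 to 3.11 FPKM in the mutants and 3.84 to 5.05 FPKM in *w1118*, and *Or59c* made up most of that sum.

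**Figure D3:**
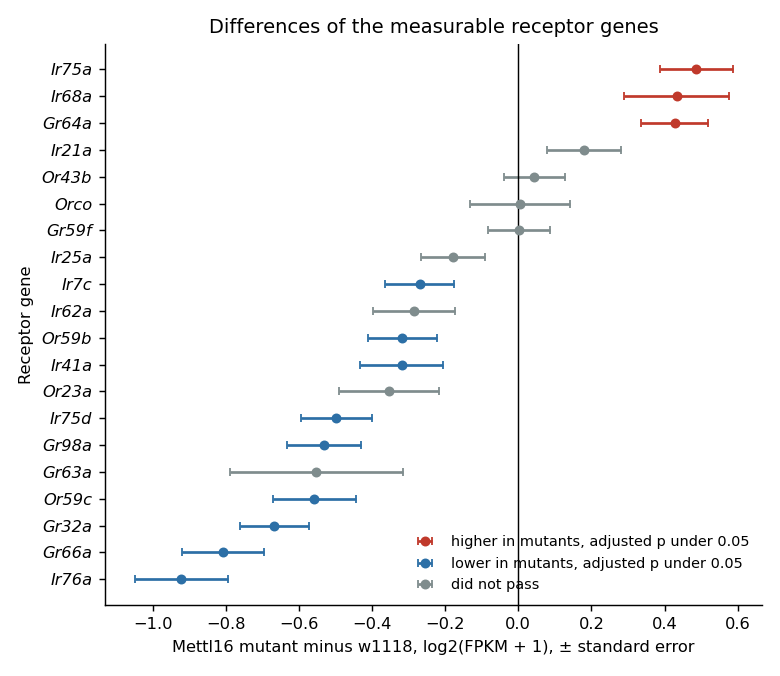
Difference between *Mettl16* mutants and *w1118* on the log2(FPKM + 1) scale for the 20 measurable receptor genes; points are the limma estimates and bars 1 standard error, coloured by the call. *Ir76a* (-0.92) and *Gr66a* (-0.81) lay farthest to the left and *Ir75a* (0.49) farthest to the right. *Ir76a* and *Gr66a* reached the filter only through *w1118* and *Ir75a* only through the mutants.

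Of the 6 measurable gustatory receptors, 3 were lower in the mutants, 1 was higher and 2 did not pass. The measurable members of the bitter list, *Gr66a* and *Gr32a*, were lower in the mutants, and *Gr64a*, the measurable sugar receptor, was higher. *Gr66a* reached the filter only through *w1118* and *Gr64a* only through the mutants, so the filter favoured the direction of both, while *Gr32a* reached it in both genotypes. *Gr66a* (3L, 8305336 to 8306980), used as a marker of bitter taste neurons, had 0.152, 0.278 and 0.255 FPKM in the mutants, against 1.39, 0.955 and 1.12 FPKM in *w1118*. The mutant mean was 5.06-fold lower, and the log2 difference was -0.81 ± 0.11 (adjusted p = 0.000676). *Gr32a* (2L, 11114014 to 11115823), a receptor for bitter compounds that also restrains courtship between males, had the highest mean of the family. It had 0.659, 0.478 and 0.472 FPKM in the mutants, against 1.52, 1.48 and 1.31 FPKM in *w1118*. It was 2.68-fold lower, without overlap, at a log2 difference of -0.67 ± 0.10 (adjusted p = 0.000802). Of its span, 189 bases overlap *CG6230* on the other strand, which was also lower, with 43.9 FPKM in the mutants and 63.0 FPKM in *w1118*.

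The 5 broadly used bitter receptors *Gr32a*, *Gr33a*, *Gr39a*, *Gr66a* and *Gr89a* summed to 0.854 to 1.002 FPKM in the mutants and 2.51 to 3.11 FPKM in *w1118*. That gap lay in *Gr32a* and *Gr66a*. *Gr33a*, which most bitter neurons also express, had 0.0723, 0.112 and 0.115 FPKM in the mutants, against 0.0995, 0.152 and 0.0749 FPKM in *w1118*, and its values overlapped.

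*Gr98a* (3R, 27487927 to 27489968), another gustatory receptor, had 0.400, 0.351 and 0.397 FPKM in the mutants, against 1.204, 0.925 and 0.885 FPKM in *w1118*. It was 2.62-fold lower in the mutants, with a log2 difference of -0.53 ± 0.10 (adjusted p = 0.00325). *Gr98a* reached the filter only through *w1118*, which favoured that direction. *Gr59f* (2R, 23542510 to 23543885) had 0.907, 0.925 and 0.818 FPKM in the mutants, against 0.848, 0.925 and 0.870 FPKM in *w1118*, with overlapping ranges. Its log2 difference was 0.00 ± 0.09.

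*Gr64a* (3L, 4026769 to 4028600) encodes a subunit of receptors for sugars such as maltose. It had 0.844, 0.743 and 0.874 FPKM in the mutants, against 0.360, 0.326 and 0.371 FPKM in *w1118*. All mutant values were above all *w1118* values, and the difference was 2.33-fold, or 0.43 ± 0.09 on the log2 scale (adjusted p = 0.00591). It was the only one of the 9 sugar receptors above the 0.5 FPKM mean. The 9 genes together summed to 2.85 to 3.26 FPKM in the mutants and 1.09 to 1.51 FPKM in *w1118*. *Gr64a* to *Gr64f* form a cluster on 3L in which *Gr64b* and *Gr64c* have the same span, so the division of reads between them is uncertain. *Gr64a* itself overlaps no other gene and starts the cluster, 5 bases before *Gr64c*.

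The carbon dioxide receptor is built from Gr21a and Gr63a. *Gr63a* (3L, 3894999 to 3896603) had 0.136, 0.266 and 0.288 FPKM in the mutants, against 0.916, 1.49 and 0.224 FPKM in *w1118*. *w1118* replicate 3 lay among the mutant values. The log2 difference was -0.55 ± 0.24 (adjusted p = 0.0870), and it was -0.83 (adjusted p = 0.00501) without that library. *Gr21a* had 0.02002, 0.0215 and 0 FPKM in the mutants and was listed at 0 in all 3 *w1118* libraries.

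**Figure D4:**
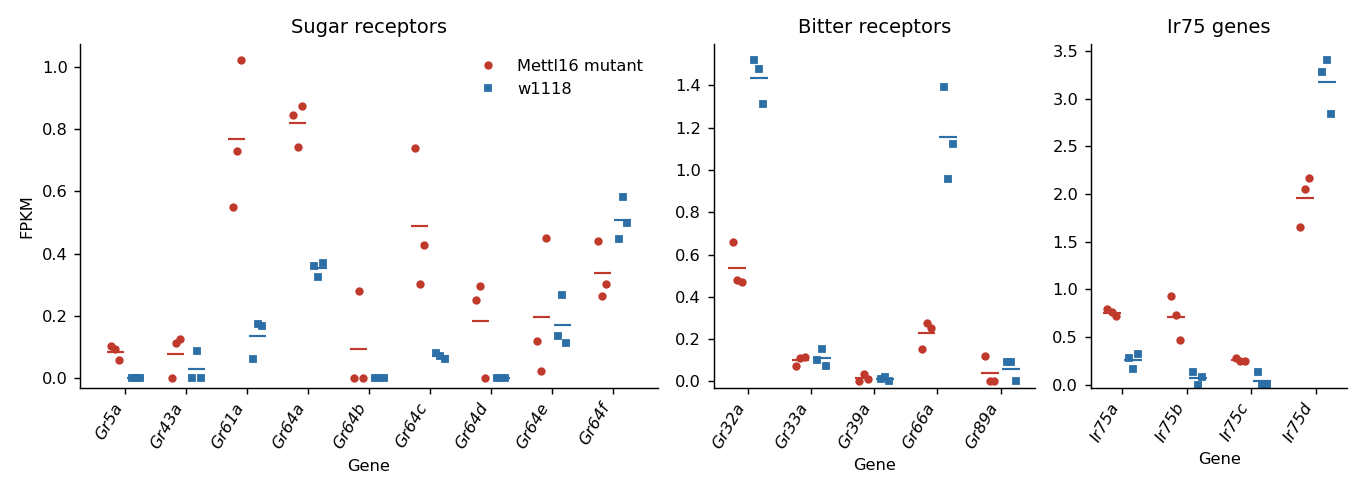
FPKM per input library for the 9 sugar receptors, the 5 broadly used bitter receptors and the 4 *Ir75* genes, with mutants left (red circles) and *w1118* right (blue squares), n = 3 each; short lines are genotype means and the 3 panels have separate axes. *Gr64a* and *Gr61a* were higher in every mutant library, *Gr32a* and *Gr66a* lower, and *Ir75a* and *Ir75d* differed in opposite directions.

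Of the coreceptors of the ionotropic family only *Ir25a* was measurable, and it did not pass the test, while 4 measurable tuning receptors were lower and 2 higher. *Ir25a* (2L, 4830846 to 4835300), the most widely used coreceptor, had 0.952, 0.963 and 1.05 FPKM in the mutants, against 1.32, 1.11 and 1.32 FPKM in *w1118*. The groups did not overlap, and the log2 difference of -0.18 ± 0.09 missed the threshold (adjusted p = 0.125). The other coreceptors were below 0.5 FPKM and so were not in this test. *Ir76b* (3L, 20108484 to 20111534) had 0.383, 0.256 and 0.290 FPKM in the mutants, against 0.330, 0.329 and 0.414 FPKM in *w1118*. *Ir93a* had 0.177, 0.0253 and 0.0462 FPKM in the mutants, against 0, 0 and 0.0837 FPKM in *w1118*. *Ir8a*, the coreceptor for acid sensing, had 0.05004, 0 and 0.0321 FPKM in the mutants, against 0.0452, 0.0504 and 0.0262 FPKM in *w1118*. For all 3 the genotypes overlapped.

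*Ir76a* (3L, 19799278 to 19803427), an antennal receptor for amines such as phenylethylamine, had the largest difference of the 20 genes on the log2(FPKM + 1) scale, while the ratio of means was larger for *Gr66a*. *Ir76a* had 0.221, 0.583 and 0.406 FPKM in the mutants, against 1.46, 1.54 and 1.96 FPKM in *w1118*. It reached the filter only through *w1118*, so the filter favoured this direction. The mutant mean was 4.10-fold lower and the log2 difference -0.92 ± 0.13 (adjusted p = 0.000675). Of its 4150-base span, 2014 bases overlap *CG14102* on the other strand, which was higher in the mutants, with 2.39 FPKM in mutants and 1.34 FPKM in *w1118*.

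*Ir41a* (2R, 4917519 to 5021955), an antennal receptor for polyamines, had 0.580, 0.554 and 0.756 FPKM in the mutants, against 1.30, 0.885 and 0.926 FPKM in *w1118*. The values did not overlap, but the call at -0.32 ± 0.11 (adjusted p = 0.0484) was narrow. It was lost when any library except mutant replicate 3 was left out, with adjusted p up to 0.131.

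The 4 *Ir75* genes, antennal receptors that include sensors of small carboxylic acids, differed in both directions. *Ir75d* (3L, 18908260 to 18911182), which is the highest of them, had 1.65, 2.06 and 2.17 FPKM in the mutants, against 3.28, 3.40 and 2.84 FPKM in *w1118*. It was 1.62-fold lower in the mutants, at -0.50 ± 0.10 on the log2 scale (adjusted p = 0.00364). It lies wholly within *CG14077* on the same strand, and *CG14077* was also lower, with 19.2 FPKM in the mutants, 27.1 FPKM in *w1118* and a log2 difference of -0.47. The part of *CG14077* reads in the value of *Ir75d* was not tested.

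*Ir75a* (3L, 17815570 to 17817921), which in *D. melanogaster* is tuned to acetic acid, had 0.795, 0.759 and 0.721 FPKM in the mutants, against 0.284, 0.166 and 0.320 FPKM in *w1118*. It was 2.96-fold higher, without overlap, at 0.49 ± 0.10 (adjusted p = 0.00459). *Ir75a* reached the filter only through the mutants, so the filter favoured this direction. *Ir75b* and *Ir75c* follow *Ir75a* in a tandem array that reaches base 17822834, and no other gene overlaps the array. *Ir75b* had 0.934, 0.730 and 0.471 FPKM in the mutants, against 0.130, 0 and 0.0847 FPKM in *w1118*. *Ir75c* had 0.282, 0.248 and 0.252 FPKM in the mutants, against 0.132, 0 and 0 FPKM in *w1118*. All 3 genes of the array were higher in every mutant library than in any *w1118* library. Of all genes tested 29.7% were, but *Ir75b* and *Ir75c* lay below 0.5 FPKM and were not among the genes tested.

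*Ir68a* (3L, 11232972 to 11236218), needed in the neurons that sense moist air, had 0.740, 0.983 and 1.46 FPKM in the mutants, against 0.620, 0.379 and 0.544 FPKM in *w1118*. Mutant replicate 3 was the highest value. The log2 difference was 0.43 ± 0.14 (adjusted p = 0.0369), and the call was lost without mutant replicate 2 or 3 or *w1118* replicate 2 or 3, with adjusted p up to 0.113. *Ir21a* (2L, 21823 to 25155), which senses cooling together with Ir25a and Ir93a, had 0.855 ± 0.151 FPKM in the mutants and 0.636 ± 0.059 FPKM in *w1118* (SD, n = 3 each) and did not pass (adjusted p = 0.180).

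*Ir7c* (X, 7874394 to 7876847), a taste receptor subunit for high salt, had 0.575, 0.430 and 0.490 FPKM in the mutants, against 0.864, 0.810 and 0.745 FPKM in *w1118*. The log2 difference was -0.27 ± 0.09 (adjusted p = 0.0442), and leaving out any 1 of the 6 libraries lost the call, with adjusted p up to 0.133. *Ir7c* reached the filter only through *w1118*, which favoured that direction. *Ir62a* (3L, 1529439 to 1531259) had the highest level of the family. It had 2.45, 2.63 and 1.74 FPKM in the mutants, against 3.05, 2.92 and 2.93 FPKM in *w1118*. Mutant replicate 2, at 2.63 FPKM, was the closest to *w1118*. The difference of -0.29 ± 0.11 did not pass (adjusted p = 0.0649) and passed at 0.0394 without that library. *Ir62a* lies wholly within *Iml1* on the same strand, and *Iml1* was higher in the mutants, with 12.8 FPKM in mutants and 8.61 FPKM in *w1118*.

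Of the 20 measurable genes, 9 overlap another annotated gene other than a transposon, and the 5 genes of highest level are all among these 9. Of the 9, 5 were lower and 4 did not pass. Of the 11 that overlap none, 4 were lower, 3 higher and 4 did not pass. Of all genes tested, 26.7% were lower and 22.9% higher. Of the called genes that overlap none, *Gr64a* and *Ir75a* reached the filter only through the mutants, and *Gr98a*, *Gr66a* and *Ir7c* only through *w1118*. Of the called genes that overlap another, *Ir76a* reached it only through *w1118*. The filter favoured the direction of each of these. The libraries were strand-specific, but whether StringTie was run with strand was not given in the sources used here. For the 9 genes, reads of a gene and its overlapping partner may not be separated. The coverage behind a measurable gene corresponded to 8.4 to 339 reads of 150 bases per library, with a median of 75.9.

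Below the filter, 135 of the 148 receptor genes had a value above 0 in at least 1 library. When every gene with a value was tested, 27 of 155 receptor genes (17.4%) passed, 11 higher and 16 lower, against 34.8% of 20177 genes, 16.5% higher and 18.3% lower. Below 0.5 FPKM these were 9 higher and 8 lower genes. The 9 higher genes included the sugar receptors *Gr61a*, *Gr64c* and *Gr5a*. *Gr61a* (3L, 841451 to 843701), a glucose receptor of the legs, had 0.551, 0.730 and 1.02 FPKM in the mutants, against 0.0625, 0.175 and 0.168 FPKM in *w1118*. *Gr64c* had 0.739, 0.303 and 0.427 FPKM in the mutants, against 0.0807, 0.0703 and 0.0636 FPKM in *w1118*. *Gr5a*, a trehalose receptor, had 0.104, 0.0946 and 0.0602 FPKM in the mutants and was listed at 0 in all 3 *w1118* libraries. With *Gr64a*, 4 of the 9 sugar receptors were higher and none was lower in this fit without a filter. *Gr64f* had 0.441, 0.266 and 0.303 FPKM in the mutants, against 0.448, 0.581 and 0.498 FPKM in *w1118*, and did not pass (adjusted p = 0.0819).

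Among the others that were higher, *Or19b* and *Or19a* are a recently duplicated pair on X that serves citrus odour detection. *Or19b* had 0.621, 0.614 and 1.30 FPKM and *Or19a* had 0.184, 0.159 and 0.218 FPKM in the mutants, and both were listed at 0 in all 3 *w1118* libraries. How reads were divided between these similar copies is uncertain. *Or85d*, *Or69a* and *Ir20a* were likewise above 0 in every mutant library and listed at 0 in every *w1118* library, although *Or69a* and *Ir20a* did not pass. With *Gr5a* and the *Or19* pair, 6 of the 168 receptor genes had this pattern, against 178 of all 21076 genes. *Or85d* passed, and the remaining higher genes were *Ir75b*, *Ir75c* and *Gr28b*, a gene whose isoforms include a warmth receptor.

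On the log2(FPKM + 1) scale, the largest decreases below the filter were in *Or94a* and *Ir51a*. *Or94a* (3R, 22987281 to 22988503), known as a larval receptor, had 0.0707, 0.161 and 0.0372 FPKM in the mutants, against 1.06, 0.792 and 0.764 FPKM in *w1118*, a log2 difference of -0.78 ± 0.08. It lies wholly inside *Nha2*, on the other strand, which had 11.5 FPKM in the mutants and 9.18 FPKM in *w1118*. *Ir51a* (2R, 15204654 to 15206334), which overlaps no other gene, had 0.0778, 0.205 and 0.0501 FPKM in the mutants, against 0.697, 0.726 and 0.857 FPKM in *w1118*, a log2 difference of -0.66 ± 0.07. *Gr22f*, *Gr39b*, *Gr47a*, *Or46a*, *Or67b* and *Ir52b* were lower too, all with *w1118* means under 0.5 FPKM. *Or67b* and *Or92a*, a receptor for diacetyl, were listed at 0 in every mutant library and above 0 in every *w1118* library, and *Or92a* did not pass. These were 2 of the 168 receptor genes, against 110 of all 21076 genes with that pattern.

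**Figure D5:**
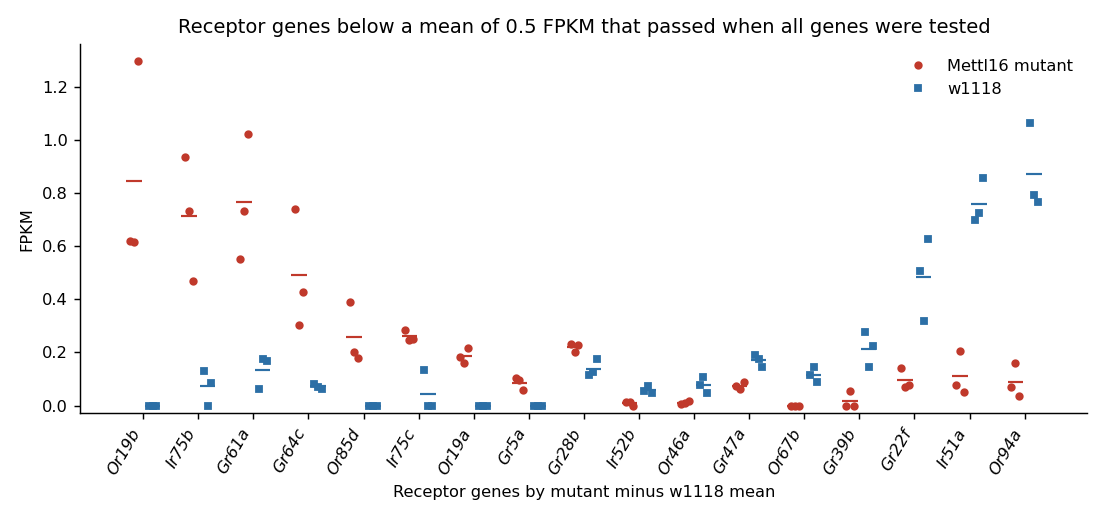
FPKM per input library of the 17 receptor genes below a mean of 0.5 FPKM that passed when all genes were tested, ordered by mutant minus *w1118* mean, with mutants left (red circles) and *w1118* right (blue squares), n = 3 each; short lines are genotype means. *Or19b*, *Ir75b* and *Gr61a* stood highest in the mutants, and *Or94a* and *Ir51a* were near 0 there while *w1118* values lay between 0.697 and 1.06.

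Only 18 receptor genes had more than 1 annotated isoform, and 4 of these, *Ir25a*, *Ir76a*, *Ir68a* and *Ir7c*, were measurable. Of their 9 isoforms with shares that could be tested, 1 passed, against 3.84% of 19274 isoforms. This was FBtr0301604 of *Ir76a*, which took none of the gene's FPKM in the mutants, against shares of 1, 0.491 and 0.802 in *w1118* (adjusted p = 0.0436, limma on the arcsine square root of the share). In the mutants the whole value was given to FBtr0301606 in replicate 1 and to FBtr0301607 in replicates 2 and 3. The gene's total there was at most 0.583 FPKM, and the call was lost without mutant replicate 2, mutant replicate 3 or *w1118* replicate 3. For *Ir68a* the same single isoform took the whole value in all 6 libraries.

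m6A peaks were read from the deposited list of the *Mettl16* mutants, which gives one value per peak for the 3 replicates together, so that no test between genotypes was made. Peaks were assigned to 23 of the 168 receptor genes (13.7%), against 58.5% of all genes. An assigned peak can come from an overlapping gene, and this was not tested. The *Or46a* peak (2R, 10138850 to 10139267) lies mostly before the gene, which starts at 10139264. *Or46a* shares 4 bases with *CG12917*, a gene of 7.16 FPKM on the same strand. *Ir85a*, at 0.464 FPKM, lies wholly inside *Pif1A* and *Pif1B*, at 62.2 and 76.6 FPKM on the other strand. Among the measurable receptors 8 of 20 (40%) had a peak, against 81.8% of all genes of at least 0.5 FPKM and 61.4% of those of 0.5 to 3 FPKM. The FDR of the authors was under 0.05 for 16 of the 23 genes and for 5 of the 8. Of the 29 peaks, 11 were annotated to the 3'UTR, 10 to exons, 4 to the 5'UTR and 3 to introns, and 1 had no annotation. The median log2 enrichment of IP over input was 2.27, and it was 2.32 over the whole list.

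Peaks were assigned to receptors of both directions. *Ir76a*, lower in the mutants, had a peak at the end of its 3'UTR (3L, 19803249 to 19803427) with a log2 enrichment of 2.27. *Ir75a*, higher in the mutants, had a 3'UTR peak (3L, 17815570 to 17815747) with 3.47. *Or43b*, whose level did not pass and which overlaps *Cul1*, was assigned 2 peaks with log2 enrichments of 1.31 and 1.87. *Or59c* had a 5'UTR peak with 1.12 and *Ir75d* a peak without annotation with 1. *Ir41a*, *Gr59f* and *Ir25a* had peaks whose FDR was above 0.05. The 3 intronic peaks were all assigned to *Ir40a*, a gene of 0.106 FPKM, and overlapped one another. The peaks were 4487 to 5037 bases long. A transposon insertion on the same strand covers 5144 bases of *Ir40a* and had 2.77 FPKM. The part of this insertion in the 3 peaks was not tested. No peak was listed in *Gr66a*, *Gr32a*, *Gr98a* or *Gr64a*, and at these levels a missing peak does not show that the mark was absent.

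Genes that work beside the receptors were read from lists of other genes. Of 13 olfactory membrane proteins and selectors of receptor choice, 9 were measurable, 1 higher and 2 lower, beside 22.9% higher and 26.7% lower of all genes tested, the background for each list here. *Snmp2*, a sensory neuron membrane protein, had 2.29 FPKM in the mutants and 3.98 FPKM in *w1118*, and *acj6*, a POU factor that selects odorant receptors, had 1.56 FPKM in the mutants and 2.35 FPKM in *w1118*. *Tmem63*, which senses food texture, was higher, with 16.5 FPKM in the mutants and 12.0 FPKM in *w1118*. Of 16 other sensory channels, 11 were measurable, 5 higher and 2 lower. Beside chemosensory and thermosensory channels these included *trpl* of photoreceptors and the mechanosensory *Piezo*, *nan* and *iav*. Of 14 ionotropic glutamate receptors, the relatives of the Ir genes, 13 were measurable and only *Grik* passed, being lower. Of 28 genes listed for ciliary transport, which builds the cilium that holds the receptors, 20 were measurable, 4 higher and 3 lower. This list also held the transcription factors *Rfx* and *fd3F*, and *ttv*, a gene of heparan sulfate synthesis.

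Markers of cell types that hold or surround receptor neurons, and of other cells of the male, were read against the same background. Of 10 genes of olfactory support cells, 9 were measurable, 3 were lower in the mutants and none was higher, beside 26.7% lower and 22.9% higher of all genes tested. Their sum was 61.0 to 78.4 FPKM in the mutants and 92.3 to 122 FPKM in *w1118*, and *lush*, an odorant-binding protein that receives a male pheromone, had 1.03 FPKM in the mutants and 2.62 FPKM in *w1118*. All 20 genes of a neuronal list were measurable, 5 were higher (22.9% of all genes tested were) and none was lower. Their sums were 339 to 352 FPKM in the mutants and 282 to 339 FPKM in *w1118*. Not all of these genes are pan-neuronal, since the list also held the transmitter genes *VGlut*, *ChAT*, *VAChT* and *Gad1*, the receptor gene *Rdl*, and *Nrg* and *Fas2*. All 13 photoreceptor genes were measurable, 10 higher and 2 lower, at sums of 2203 to 2490 FPKM in the mutants and 1658 to 1791 FPKM in *w1118*. Of 10 genes of enteroendocrine cells, which also express some Gr genes, 9 were measurable, 2 higher and 2 lower, at sums of 218 to 227 FPKM in the mutants and 145 to 184 FPKM in *w1118*. All 14 genes of spermatocytes, spermatids and sperm were measurable and 12 were lower. Their sums were 1215 to 1402 FPKM in the mutants and 1816 to 2039 FPKM in *w1118*. The spermatocyte genes among them were *aly*, *can*, *nht*, *twe* and *bol*. Of 10 genes of the female germline and yolk, 3 were measurable and 1 was higher, at 5.81 to 10.1 FPKM in the mutants and 3.19 to 8.26 FPKM in *w1118*. The part of these cell types in the receptor values was not tested.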

How the data were processed

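MeRIP-seq libraries of whole adult males were made from poly(A) RNA with a strand-specific (dUTP) method. The authors ran fastp and FastQC on the reads and HISAT2 for alignment, and StringTie gave the deposited FPKM per gene and isoform of the input libraries. Tool versions were not given in the sources used here. The isoform table also holds the signal of the authors' StringTie run, the mean read coverage per base, whose ratio to FPKM gave the depth. The authors' deposited peak list holds a log2 enrichment and an FDR, an adjusted p-value, for each exomePeak peak. Coordinates are as deposited. The reference is named only as *D. melanogaster* version v107, and the 168 receptor genes have the same start and end in the RefSeq table of Release 6.

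The test covered the 13866 of 21076 genes that averaged 0.5 FPKM or more over the 6 input libraries. They were tested on log2(FPKM + 1) with limma 3.58.1 (R 4.3.3, trend, two-sided), with Benjamini-Hochberg adjustment over all of them and a threshold of 0.05. A fold change on this scale understates the change of low genes, and fold values in the text are ratios of mean FPKM. Isoform shares, for genes with at least 2 isoforms and shares of 0.01 to 0.99, were transformed to the arcsine square root and fitted with limma, and a call needed a change of share over 0.05. With 3 libraries per genotype, the smallest two-sided p of a rank test would be 0.1. Scripts were tested on simulated data. Tables were made with Python 3.11.15, pandas 2.3.3 and NumPy 2.4.6, and figures with matplotlib 3.10.9.

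The receptor genes and 19 gene lists (244 entries, 235 matched) were chosen with earlier results of these data known. All 20 measurable receptors are named, with every library's value for those that passed, the coreceptors and the highest of each family, and at most 4 called genes of other lists. Receptors below 0.5 FPKM are named because they passed without the filter, or were at 0 in one genotype only, and so were chosen after their values were seen. Further per-sample columns were left out, 9 of them among the gene values and 18 among the isoform values. Columns and tables of the authors' own comparisons hold fold changes and p-values between genotypes for genes and peaks and were not used. The *w1118* peak list and the IP coverage were not analysed here.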

Additional observations from a re-analysis of the deposited data

How the results depend on the processing

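Of the 12 calls, 8 held under every alternative that tested the gene (*Or59c*, *Ir75d*, *Ir76a*, *Gr32a*, *Gr98a*, *Gr66a*, *Gr64a* and *Ir75a*), and 4 (*Or59b*, *Ir41a*, *Ir68a* and *Ir7c*) were lost under at least 1. *Ir75a* was tested in only 8 alternatives, since it fell below the filter whenever a mutant library was left out. *Ir62a*, *Or23a* and *Gr63a* passed only when 1 library was left out. With a filter at a mean of 1 FPKM, 7 receptor genes were tested and 4 passed, 4 lower and 0 higher; with no filter, 27 of 155 passed, 11 higher and 16 lower, and *Ir41a* and *Ir68a* did not. Measurable genes numbered 53 at a mean of 0.1 FPKM and 7 at 1 FPKM. Another pseudocount of 0.1 or quantile normalization changed no call of the 20 genes, and median-ratio scaling only turned the sign of *Gr59f* (-0.00011 on the log2 scale).

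Leaving out 1 library at a time, with the filter applied again, gave 10 to 12 calls, 1 to 5 of them higher and 6 to 9 lower, and 21 to 22 measurable genes. The count of higher genes was 1 without mutant replicate 2 or 3 and 5 without *w1118* replicate 1. Without mutant replicate 2 or 3, *Ir75a* was below the filter and *Ir68a* did not pass (adjusted p = 0.0710 and 0.101), while *Gr64a* passed. Over all fits with 1 library left out, log2 differences ranged from -0.0037 to 0.0688 for *Or43b*, -0.137 to 0.0867 for *Orco* and -0.0144 to 0.0268 for *Gr59f*, none past the threshold. The isoform count was 0 to 1. The cause of the other changes was not tested.

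Same-numbered libraries did not deviate together (correlations of -0.036, -0.061 and -0.027), and 0 of the 3 mutant libraries correlated best with its own number in *w1118*. No pairing by number was detected, but such correlations cannot exclude that same-numbered libraries were prepared together. A fit with the replicate block gave 8 calls, 2 higher and 6 lower, and 0 isoform calls, the 4 genes lost being *Or59b*, *Ir41a*, *Ir68a* and *Ir7c*. The alternative on differential peaks was not run, since that table holds the authors' own comparison. Low coverage limits what could be detected in the genes below 0.5 FPKM.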
